A study of Homo sapiens with 18 samples.

Results

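The genes described here encode nuclear subunits of the mitochondrial respiratory chain and ATP synthase, followed in 3 human pancreatic cancer cell lines with and without the drug THZ1. They were picked out by symbol, with earlier results of these data known, and they number 74 of the 26485 genes in the count files. Complex I (NADH dehydrogenase, NDUF genes) has 37 of them and complex II (succinate dehydrogenase, SDH genes) has 4. Complex III (cytochrome bc1, UQCR genes) has 8, complex IV (cytochrome c oxidase, COX genes) has 10 and complex V (ATP synthase, ATP5 genes) has 15. All 74 passed the filter on low counts, as did 14011 genes in all.

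The lines were BxPC3, Panc327 and SUIT2, each a culture line derived from a pancreatic cancer. Each line was given the solvent DMSO or 100 nM THZ1, a covalent inhibitor of the kinase CDK7, for 6 hours. Every line and treatment had 3 libraries of polyadenylated RNA, which makes 6 groups and 18 libraries. The series title names SIRT6, a deacylase of chromatin, but the labels give no change of SIRT6 in any of these samples. The labels do not say whether the 3 libraries of a group came from separate cultures, so p-values here rest on the spread among the libraries alone, which may be technical. No group is a normal pancreas, and each line stands for 1 tumour.

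Complexes I and II pass electrons from NADH and succinate to ubiquinone, complex III passes them on to cytochrome c, and complex IV hands them to oxygen. Complexes I, III and IV pump protons across the inner membrane, and complex V uses the returning protons to make ATP. Every complex except complex II also holds subunits encoded by mitochondrial DNA, so the nuclear and mitochondrial genomes both supply parts. The transcription factors NRF1, GABPA (an ETS factor also called NRF2), YY1 and SP1 are known for binding many promoters of the nuclear subunit genes. NDUFA4 was named as a complex I subunit and is now assigned to complex IV, and the RefSeq table used here lists it as COXFA4. It is kept with complex I because its symbol placed it there.

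Promoter windows, 250 bases before to 50 bases after the transcription start, were taken from RefSeq (GRCh38.p14) for 62 of the 74 genes, with 74 windows among them. The table had no entry for the other 12, among them NDUFB5, NDUFB9, NDUFC2, NDUFS5, SDHC, UQCRB, COX6C, ATP5B, ATP5D, ATP5G3 and ATP5J2. The windows below belong to the genes that set the ends of the THZ1 response: NDUFV3, which fell, NDUFA4, COX8A and ATP5E, which rose far, and SDHA and UQCRFS1, which rose least in their complexes in BxPC3 and Panc327. Capitals mark matches to 4 motifs searched on both strands: GCGCANGCG for NRF1, CCGGAAG for ETS factors, AAGATGGCG for YY1 and GGGCGGG for the GC box of SP1. Matches of different motifs overlapped in 0 of the 74 windows. The windows are NDUFV3 at chr21:42893059-42893358, plus strand, NDUFA4 at chr7:10940104-10940403, minus strand, SDHA at chr5:218070-218369, plus strand, UQCRFS1 at chr19:29213102-29213401, minus strand, COX8A at chr11:63974370-63974669, plus strand, and ATP5E at chr20:59032286-59032585, minus strand. Each is printed 5′ to 3′ in the direction of its gene.
NDUFV3: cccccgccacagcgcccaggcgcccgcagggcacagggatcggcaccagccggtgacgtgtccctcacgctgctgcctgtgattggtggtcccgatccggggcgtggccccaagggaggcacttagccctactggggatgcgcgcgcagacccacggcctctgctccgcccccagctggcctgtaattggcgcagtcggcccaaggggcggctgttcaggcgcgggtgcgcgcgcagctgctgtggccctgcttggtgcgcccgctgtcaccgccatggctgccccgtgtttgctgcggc
NDUFA4: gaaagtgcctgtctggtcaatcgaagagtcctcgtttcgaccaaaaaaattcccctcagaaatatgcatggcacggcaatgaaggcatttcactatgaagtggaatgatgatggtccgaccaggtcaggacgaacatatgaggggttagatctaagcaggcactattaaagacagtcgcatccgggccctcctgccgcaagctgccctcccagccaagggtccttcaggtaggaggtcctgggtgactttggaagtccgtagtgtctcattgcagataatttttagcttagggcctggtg
SDHA: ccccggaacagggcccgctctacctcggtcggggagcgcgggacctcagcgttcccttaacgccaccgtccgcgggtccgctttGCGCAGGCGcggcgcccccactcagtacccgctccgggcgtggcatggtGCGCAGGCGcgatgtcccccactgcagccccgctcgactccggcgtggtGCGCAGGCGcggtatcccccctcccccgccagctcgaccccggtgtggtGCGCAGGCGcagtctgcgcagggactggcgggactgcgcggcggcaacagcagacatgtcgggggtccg
UQCRFS1: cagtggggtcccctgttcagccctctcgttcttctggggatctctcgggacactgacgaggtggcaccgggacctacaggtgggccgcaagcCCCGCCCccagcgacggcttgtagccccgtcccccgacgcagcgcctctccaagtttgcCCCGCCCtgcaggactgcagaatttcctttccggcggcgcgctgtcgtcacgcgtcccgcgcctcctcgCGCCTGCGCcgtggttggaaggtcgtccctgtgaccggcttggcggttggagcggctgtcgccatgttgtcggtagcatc
COX8A: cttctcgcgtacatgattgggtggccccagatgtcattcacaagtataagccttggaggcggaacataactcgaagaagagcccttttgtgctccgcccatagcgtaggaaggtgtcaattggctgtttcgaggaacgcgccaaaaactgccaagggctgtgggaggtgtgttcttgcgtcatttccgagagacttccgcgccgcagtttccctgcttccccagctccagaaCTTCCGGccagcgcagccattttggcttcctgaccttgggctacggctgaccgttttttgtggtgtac
ATP5E: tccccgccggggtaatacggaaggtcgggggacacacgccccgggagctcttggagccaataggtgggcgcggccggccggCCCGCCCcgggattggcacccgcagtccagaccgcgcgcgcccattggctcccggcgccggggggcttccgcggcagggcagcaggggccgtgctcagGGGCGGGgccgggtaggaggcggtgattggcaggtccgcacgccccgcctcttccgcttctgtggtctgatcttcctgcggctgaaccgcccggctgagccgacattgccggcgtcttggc
Positions count from the transcription start, with the first transcribed base at 1. The SDHA window held the NRF1 letters 4 times on the gene's own strand, starting at -166, -117, -68 and -19, each 49 bases after the last. UQCRFS1 had 1 NRF1 match at -30 and GC boxes at -158 and -99, all on the opposite strand. COX8A had 1 ETS match at -18 on the opposite strand. ATP5E had GC boxes at -169 and -71. NDUFV3 and NDUFA4 held none of the 4 motifs in these windows.

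The NRF1 letters occurred in 21 of the genes' 74 windows (28.4%), against 9.64% of 22199 windows of protein-coding genes. The ETS letters occurred in 28.4% against 12.8%, and the YY1 letters in 13.5% against 2.41%. GC boxes went the other way, with 31.1% of the windows against 42.3%. By complex, 5 of 10 complex IV windows had the ETS motif and 0 had the YY1 motif, while 57.1% of the 7 complex III windows had the NRF1 motif. Complex II had both the ETS and the NRF1 motif in 66.7% of its 3 windows each. The ETS motif was in 42.9% of complex III, 40% of complex V and 12.8% of complex I windows. The windows per complex are few, and differences between complexes were not tested. A match describes the letters of a window and not binding.

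Counts assigned to genes ranged from 5626146 to 8631273 per library. The 6 epithelial marker genes were at 1 CPM (counts per 1000000) or more in every group, summing to 5061 to 8913 CPM, while the summed markers of fibroblasts, leukocytes, endothelial cells and acinar cells stayed at or under 63.99, 54.3, 15.9 and 2.47 CPM, by library size. The epithelial markers were not alike between lines. On that scale KRT7 and CDH1 were at 15.1 and 30.4 CPM in SUIT2 with DMSO. They were at 1657 and 727 CPM in BxPC3 and 1076 and 676 CPM in Panc327. KRT8 and KRT18 were highest in SUIT2, at 4353 and 2347 CPM with DMSO. All other CPM values use scaled library sizes. Bulk counts cannot tell fewer cells of a kind from less RNA per cell. Alignments that were not unique made up 12.8% ± 0.609 (SD, n = 3) of the counted records in DMSO and 22.8% ± 0.805 with THZ1 in BxPC3, and 13.6% ± 0.149 and 52.8% ± 1.81 in Panc327. In SUIT2 they made up 13.2% ± 0.726 and 12.9% ± 0.902. They moved with the drug in the same lines as the results below, and their part in those results was not tested.

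The first question was whether THZ1 changed the mRNAs of the respiratory chain subunits, and whether it did so alike in the 5 complexes. In BxPC3, 72 of the 74 genes rose and 1 fell, where 35.2% of all tested genes rose and 34.1% fell. In Panc327, 72 rose and 1 fell, against 35.6% and 37.8% of all genes. The 72 that rose were the same genes in both lines, NDUFV3 fell in both, and NDUFA8 was called in neither. In SUIT2, 17 of the 74 rose and 0 fell, against 6.95% and 7.64% of all genes. The tests were edgeR's quasi-likelihood tests with Benjamini-Hochberg adjustment over all 14011 genes at an adjusted p of 0.05.

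The median log2 fold change of the 74 genes was 0.86 in BxPC3, 0.97 in Panc327 and 0.09 in SUIT2. The median over all tested genes was 0.00 in BxPC3, -0.01 in Panc327 and 0.01 in SUIT2. These genes were well expressed, with a median level of 105 CPM against 28.3 for the protein-coding genes tested, and well expressed genes as a group leaned upward. Of the 4436 genes whose mean level reached 50 CPM, 62.1% rose in BxPC3, 55.8% in Panc327 and 12.5% in SUIT2, with median log2 fold changes of 0.32, 0.25 and 0.04. The fold changes are relative to the bulk of genes in each library. Scaled by library size alone, the median of all genes lay at -0.35 in BxPC3 and -0.34 in Panc327. All genes then split into 2601 higher and 7109 lower in BxPC3 and 3170 higher and 7042 lower in Panc327, where composition scaling gave 4938 and 4784, and 4992 and 5291. On that scale 63 subunit genes rose in BxPC3, 69 in Panc327 and 16 in SUIT2. The total RNA per cell was not measured.

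The summed level of the 74 genes was taken per library as well. It was 8192 ± 70.6 CPM in DMSO and 15092 ± 154 CPM with THZ1 in BxPC3 (mean ± SD, n = 3 in every group). The sum was 6990.5 ± 49.6 and 13244 ± 244 CPM in Panc327, and 9895 ± 205 and 10567 ± 205 CPM in SUIT2. The ratios of the means were 1.84, 1.89 and 1.07. As an unscaled share of all gene counts, the 74 genes took 0.878% ± 0.00573 and 1.23% ± 0.00556 in BxPC3, 0.756% ± 0.00500 and 1.14% ± 0.0129 in Panc327, and 1.10% ± 0.0224 and 1.16% ± 0.0137 in SUIT2.

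**Figure D1:**
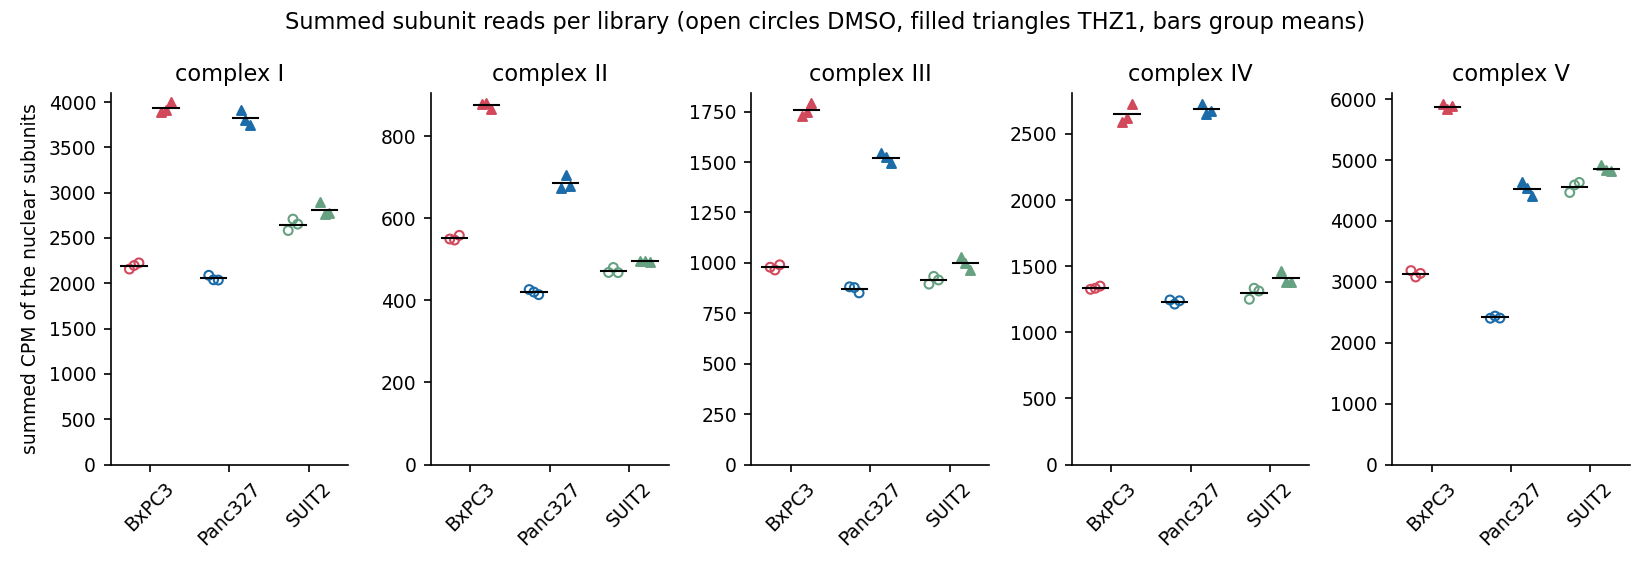
Summed CPM of the subunit genes of each complex (y axis, from 0; 1 panel per complex) in every library of the 6 groups on the x axis, with points for libraries and bars for group means. In BxPC3 and Panc327 all THZ1 libraries lie well above the DMSO libraries in every panel, and complex V, which holds ATP5B, has the highest sums, from 2415 CPM in Panc327 DMSO to 5879 CPM in BxPC3 THZ1.

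Complex I oxidises NADH, and its matrix arm carries the flavin and iron-sulfur clusters. Of its 37 genes, 35 rose in BxPC3 and 35 in Panc327, with median log2 fold changes of 0.85 and 0.97; in SUIT2 8 rose and the median was 0.08. The 7 genes of the conserved catalytic core, such as NDUFS1, NDUFV1 and NDUFV2, had lower medians than the 29 accessory genes, a set that leaves out NDUFA4: 0.48 against 0.90 in BxPC3 and 0.69 against 0.98 in Panc327. The core was not uniform. NDUFV1, the flavin and NADH binding subunit, had log2 fold changes of 0.96 in BxPC3, 1.01 in Panc327 and 0.14 in SUIT2. NDUFS1, the largest iron-sulfur subunit, had log2 fold changes of 0.48 in BxPC3, 0.69 in Panc327 and 0.030 in SUIT2. The iron-sulfur subunit NDUFV2 had log2 fold changes of 0.42 in BxPC3, 0.22 in Panc327 and -0.032 in SUIT2. All 3 were called in BxPC3 and Panc327, and of them NDUFV1 alone was called in SUIT2. With library size scaling NDUFV2 turned to -0.11 in Panc327.

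NDUFA4 had the highest fold change of the complex I symbols in BxPC3 and Panc327. Its level was 149, 143 and 141 CPM in the DMSO libraries of BxPC3 and 331, 334 and 329 CPM with THZ1 (log2 fold change 1.20, SE 0.04, adjusted p = 3.07e-42). In Panc327 it was 189.6, 192 and 195 CPM and then 481, 458 and 473 CPM (log2 fold change 1.29, SE 0.04, adjusted p = 2.98e-46). In SUIT2 it was 147, 154 and 154 CPM and then 162, 157 and 154 CPM (log2 fold change 0.06, SE 0.05, adjusted p = 0.425). The treated and control libraries were far apart in BxPC3 and Panc327. In SUIT2 the lowest treated library lay just above the highest control, and the difference did not pass the test.

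NDUFV3 encodes a small accessory subunit beside the flavin site, and it ran against the other genes. It lies at chr21:42879644-42913304, plus strand (GRCh38). Its level was 24.3, 22.6 and 25.7 CPM in BxPC3 with DMSO and 12.6, 11.7 and 11.5 CPM with THZ1 (log2 fold change -1.02, SE 0.12, adjusted p = 7.81e-13). In Panc327 it was 25.1, 24.7 and 25.7 CPM and then 15.6, 17.8 and 21.1 CPM (log2 fold change -0.47, SE 0.11, adjusted p = 6.36e-05). No treated library reached the lowest control library in either line. In SUIT2 the libraries overlapped, at 29.99, 33.6 and 31.8 CPM and then 33.6, 29.9 and 28.8 CPM (log2 fold change -0.04, SE 0.08, adjusted p = 0.799). NDUFV3 was also the lowest gene of the 74 per kilobase of its principal transcript in DMSO in every line, at 5.18 ± 0.334 CPM per kb in BxPC3 with DMSO, and its lowest library held 66 counts.

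NDUFA8, an accessory subunit that faces the intermembrane space, was the only other gene not called in BxPC3 or Panc327. It was at 43.3, 46.5 and 47.5 CPM in BxPC3 with DMSO and 47.8, 53.4 and 47.7 CPM with THZ1 (log2 fold change 0.12, SE 0.08, adjusted p = 0.173). In Panc327 it was at 51.4, 53.4 and 47.8 CPM and then 57.96, 51.1 and 51.9 CPM (log2 fold change 0.08, SE 0.07, adjusted p = 0.328). The treated libraries lay above the controls in BxPC3 by a margin smaller than the spread within either group, and overlapped them in Panc327.

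Complex II is the only complex encoded wholly in the nucleus, and it also belongs to the citric acid cycle. All 4 of its genes rose in BxPC3 and in Panc327 and 0 in SUIT2, with medians of 0.80, 0.72 and 0.06, the lowest of the 5 complexes in each line. SDHA, the flavoprotein, rose least in BxPC3 and Panc327. Its level was 200.2, 202 and 199.7 CPM in BxPC3 with DMSO and 252, 249 and 252 CPM with THZ1 (log2 fold change 0.32, SE 0.05, adjusted p = 9.24e-10). In Panc327 it was 146, 147 and 146 CPM and then 209, 213 and 202 CPM (log2 fold change 0.51, SE 0.05, adjusted p = 9e-17), and in SUIT2 162, 180.5 and 177 CPM and then 189.8, 183 and 181 CPM (log2 fold change 0.09, SE 0.05, adjusted p = 0.179). The groups did not overlap in any line, but in SUIT2 the gap was small beside the spread and the test was not passed. With library size scaling SDHA turned to -0.074 in BxPC3. SDHA has 3 named pseudogene copies, and reads they share with it are uncertain.

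SDHB, the iron-sulfur subunit of complex II, rose in both lines, with log2 fold changes of 0.90 in BxPC3, 0.90 in Panc327 and 0.018 in SUIT2. Its mean level in DMSO was 114 ± 7.44 CPM in BxPC3 and 103 ± 1.73 CPM in Panc327, and it was lowest in SUIT2 at 50.5 ± 2.09 CPM. The membrane anchors bind ubiquinone and haem. SDHC had log2 fold changes of 0.81 in BxPC3, 0.84 in Panc327 and 0.023 in SUIT2. SDHD was at 157, 147 and 151 CPM in BxPC3 with DMSO and 272, 257 and 254 CPM with THZ1 (log2 fold change 0.79), and at 75.8, 69.5 and 66.7 CPM and then 107, 112 and 101 CPM in Panc327 (0.59). In SUIT2 SDHD had a log2 fold change of 0.097 and was not called. Named pseudogenes number 4 for SDHC and 3 for SDHD.

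Complex III takes electrons from ubiquinol. All 8 of its genes rose in BxPC3 and Panc327, with medians of 0.85 and 0.97, and 3 rose in SUIT2, where the median was 0.10. UQCRQ, a small membrane subunit, rose most in BxPC3 and Panc327, by 1.14 ± 0.06 (SE) and 1.31 ± 0.06 (SE), and it rose by 0.19 ± 0.06 (SE) in SUIT2. UQCRC1, a core protein on the matrix side, had log2 fold changes of 0.82 in BxPC3, 0.96 in Panc327 and 0.20 in SUIT2 and was called in all 3 lines, as was UQCRC2, its partner, at 0.88 in BxPC3, 0.82 in Panc327 and 0.16 in SUIT2. UQCR10, another small subunit, had log2 fold changes of 0.67 in BxPC3, 0.79 in Panc327 and -0.040 in SUIT2.

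UQCRFS1, the Rieske iron-sulfur protein that carries electrons to cytochrome c1, had the smallest rise of complex III in both lines. It was at 120.4, 114 and 116 CPM in BxPC3 with DMSO and 143, 155 and 151 CPM with THZ1 (log2 fold change 0.35, SE 0.05, adjusted p = 4.79e-09). In Panc327 it was at 223, 227 and 218 CPM and then 248, 247 and 231 CPM (log2 fold change 0.12, SE 0.05, adjusted p = 0.0173). In SUIT2 it was at 53.7, 54.9 and 60.8 CPM and then 57.9, 60.02 and 60.3 CPM (log2 fold change 0.07, SE 0.06, adjusted p = 0.504). The groups stood apart in BxPC3 and, narrowly, in Panc327 and overlapped in SUIT2. With library size scaling its change turned to -0.041 in BxPC3 and -0.20 in Panc327, the latter called lower. It lies at chr19:29205321-29213541, minus strand (GRCh38) and has 3 named pseudogenes.

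Complex IV reduces oxygen to water. All 10 of its genes rose in BxPC3 and Panc327, with medians of 0.97 and 1.09, the highest of the 5 complexes, and 2 rose in SUIT2, where its median of 0.12 was also the highest. COX4I1, the regulatory subunit of the core module, had log2 fold changes of 0.96 in BxPC3, 1.06 in Panc327 and 0.12 in SUIT2. COX6C, a small membrane subunit, had the highest rise of complex IV in BxPC3, at 1.20 ± 0.05 (SE), with 1.33 ± 0.05 (SE) in Panc327 and 0.12 in SUIT2, where it was not called. COX6C has 17 named pseudogenes, the most of the 74 genes, and its reads are uncertain on that account. COX5A, a matrix subunit, had log2 fold changes of 0.79 in BxPC3, 0.84 in Panc327 and 0.058 in SUIT2, the lowest of complex IV in BxPC3 and Panc327.

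COX8A, a small membrane subunit of complex IV, had the highest fold change of the 74 genes in Panc327. Its level there was 111, 111 and 114 CPM with DMSO and 278, 298 and 290.4 CPM with THZ1 (log2 fold change 1.37, SE 0.05, adjusted p = 1.92e-38). In BxPC3 it was 151, 160.3 and 144 CPM and then 337, 329 and 352 CPM (log2 fold change 1.16, SE 0.05, adjusted p = 4.83e-35). In SUIT2 it was 113, 125 and 120.4 CPM and then 153, 139 and 123 CPM (log2 fold change 0.21, SE 0.05, adjusted p = 0.0041). All treated libraries were above all controls in BxPC3 and Panc327, and in SUIT2 the lowest treated library lay below the highest control.

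Complex V joins the catalytic F1 head to the membrane ring that proton flow turns. All 15 of its genes rose in BxPC3 and Panc327, with medians of 0.80 and 0.94, and 4 rose in SUIT2, where the median was 0.08. Its F1 genes had medians of 0.76 in BxPC3, 0.84 in Panc327 and 0.10 in SUIT2. The peripheral stalk genes (ATP5F1, ATP5H, ATP5J and ATP5O) had medians of 0.77 and 0.85 in BxPC3 and Panc327. The small membrane subunits ATP5I, ATP5J2 and ATP5L had the highest, at 1.07, 1.13 and, in SUIT2, 0.19. ATP5H, the stalk subunit d, was the lowest of complex V in SUIT2, at -0.041.

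ATP5B encodes the catalytic beta subunit and was the most abundant of the 74 mRNAs per kilobase in every group. It was at 1236, 1196 and 1222 CPM in BxPC3 with DMSO and 2625, 2539.5 and 2548 CPM with THZ1 (log2 fold change 1.08, SE 0.03, adjusted p = 7.71e-48). In Panc327 it was at 923, 937 and 925 CPM and then 1882, 1852 and 1789 CPM (log2 fold change 0.99, SE 0.03, adjusted p = 7.67e-45). In SUIT2 it was at 2158, 2196 and 2244 CPM and then 2393, 2349 and 2356 CPM (log2 fold change 0.11, SE 0.03, adjusted p = 0.0189). The untreated SUIT2 libraries lay between the untreated and the treated BxPC3 libraries. ATP5B made up 38.9% ± 0.0767 of the summed complex V level in BxPC3 with DMSO and 43.7% ± 0.556 with THZ1, and 48.2% ± 0.319 and 48.7% ± 0.142 in SUIT2. Its partner ATP5A1, the alpha subunit, had log2 fold changes of 0.63 in BxPC3, 0.76 in Panc327 and 0.095 in SUIT2.

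ATP5E, the epsilon subunit of the central stalk, was among the highest risers of complex V. It was at 69.7, 73.2 and 63.1 CPM in Panc327 with DMSO and 178, 169 and 180.1 CPM with THZ1 (log2 fold change 1.36, SE 0.06, adjusted p = 3.02e-39). In BxPC3 it was at 167, 172 and 168 CPM and then 353, 392 and 384 CPM (log2 fold change 1.15, SE 0.05, adjusted p = 1.02e-39). In SUIT2 it was at 188, 204 and 195 CPM and then 211, 209 and 210.0 CPM (log2 fold change 0.10, SE 0.05, adjusted p = 0.13). The SUIT2 groups did not overlap, and the difference did not pass the test. ATP5D, the delta subunit, had the highest SUIT2 value of the 74 genes. It was at 48.7, 60.1 and 55.9 CPM and then 77.2, 58.9 and 61.9 CPM (log2 fold change 0.27, SE 0.07, adjusted p = 0.00773), with the rise carried mostly by the first treated library and the groups overlapping.

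ATP5G1, ATP5G2 and ATP5G3 encode the same mature c subunit of the membrane ring, so their mRNAs add up to 1 product. The log2 fold change of ATP5G1 was 0.80 in BxPC3, 0.997 in Panc327 and 0.035 in SUIT2, that of ATP5G2 0.48 in BxPC3, 0.77 in Panc327 and 0.053 in SUIT2, and that of ATP5G3 0.76 in BxPC3, 0.65 in Panc327 and 0.054 in SUIT2. Per kilobase of the principal transcript, ATP5G2 made up 27.0% ± 0.607 of the 3 in BxPC3 with DMSO and 23.2% ± 0.768 with THZ1, with no overlap of the libraries. In Panc327 ATP5G1 went from 19.2% ± 1.64 to 22.7% ± 0.436 and ATP5G3 from 53.7% ± 1.24 to 49.9% ± 0.947, again without overlap. With 3 libraries against 3, a two-sided exact permutation test of a share cannot go below p = 0.10. The SUIT2 shares of ATP5G2 were 44.8% ± 0.209 and 44.8% ± 0.743, and in DMSO they lay above all libraries of the other lines. The shares depend on the length used: over all annotated exons, ATP5G3 made up 20.6% in BxPC3 with DMSO and ATP5G1 51.1%, in place of 51.6% and 21.4%.

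**Figure D2:**
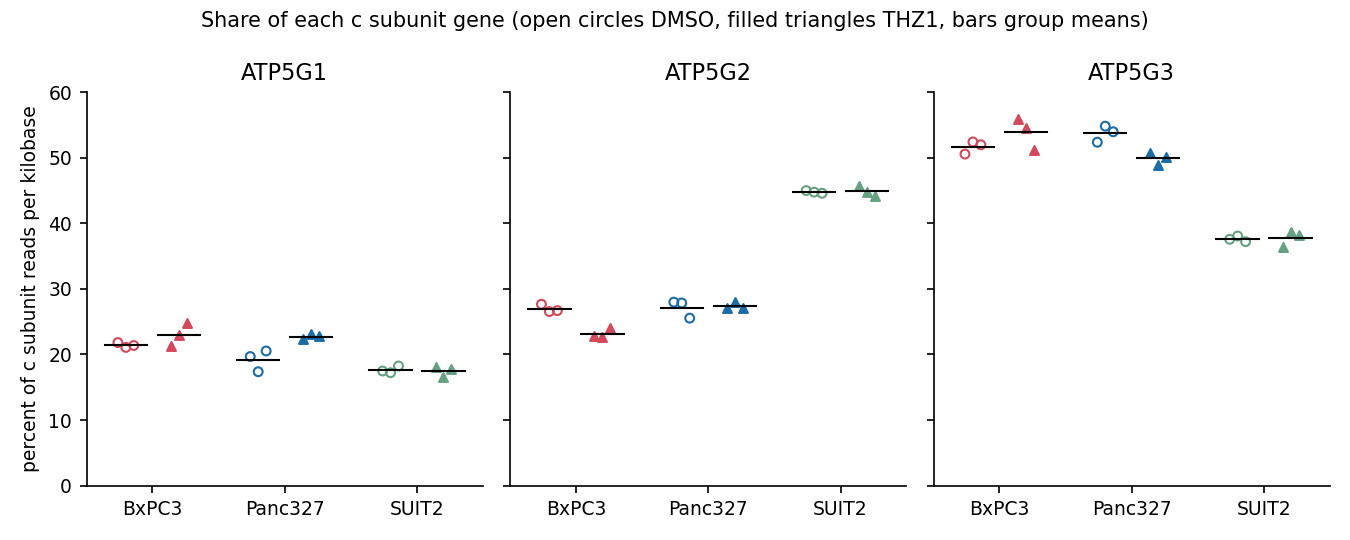
Share of each of the 3 c subunit genes in their summed CPM per kilobase of principal transcript (y axis, percent) in every library of the 6 groups (x axis), with points for libraries and bars for group means. ATP5G3 leads in BxPC3 and Panc327, with 51.6% and 53.7% in DMSO, and ATP5G2 leads in SUIT2 with 44.8%.

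The complexes were then set side by side. In BxPC3 the medians were 0.97 for complex IV, 0.85 for III, 0.85 for I, 0.80 for V and 0.80 for II. In Panc327 they were 1.09, 0.97, 0.97, 0.94 and 0.72 in the same order. Complex IV had the highest and complex II the lowest median in all 3 lines, also under each of 7 other processing settings. The order was less stable when single libraries were left out. In Panc327 it held, and in BxPC3 complex IV stayed highest. Complex V was lowest in some BxPC3 fits, such as 0.787 against 0.799 for complex II without DMSO replicate 3. Complex III was highest in some SUIT2 fits, and without THZ1 replicate 1 complex I was lowest there, at 0.0389. Within complex I alone the range in BxPC3 ran from -1.02 (NDUFV3) to 1.20 (NDUFA4), with quartiles of 0.64 and 0.99. That range was far wider than the gap between the medians of any 2 complexes. With 4 to 37 genes per complex these medians describe the genes and carry no test.

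**Figure D3:**
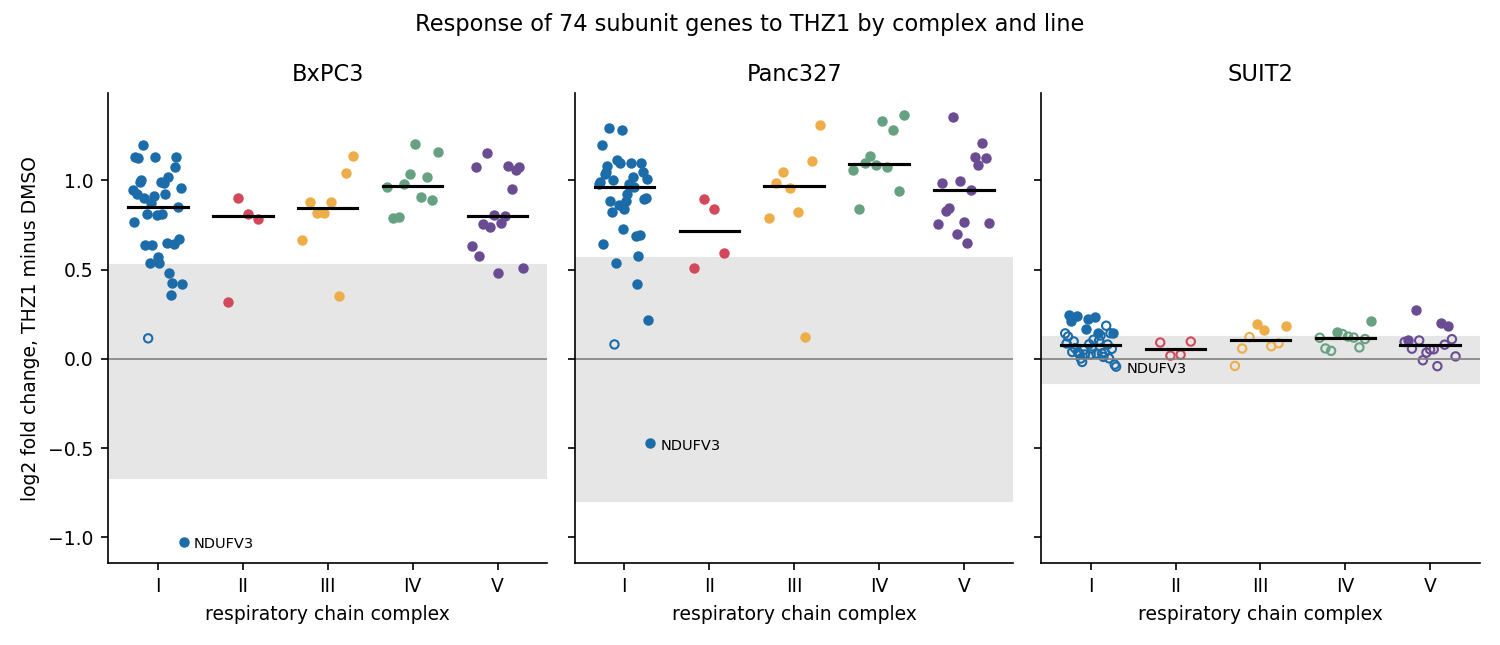
Log2 fold change with THZ1 (y axis) of each gene by complex (x axis) in BxPC3, Panc327 and SUIT2 (panels), where filled points were called at an adjusted p of 0.05, open points were not, black bars are complex medians and the grey band spans the quartiles of all 14011 genes. The genes lie mostly above the band in BxPC3 and Panc327, with NDUFV3 at -1.02 and -0.47, and near 0 in SUIT2.

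The shares of the complexes in the summed CPM were compared next. Complex IV took 16.3% ± 0.125 (SD, n = 3) of the summed level in BxPC3 with DMSO and 17.5% ± 0.304 with THZ1, and 17.6% ± 0.239 and 20.3% ± 0.254 in Panc327, with no overlap of the libraries in either line. Complex II took 6.73% ± 0.0268 and 5.80% ± 0.108 in BxPC3, and 6.01% ± 0.0467 and 5.18% ± 0.179 in Panc327. In SUIT2 complex IV had 13.1% ± 0.17 and 13.3% ± 0.176, and complex II 4.77% ± 0.0797 and 4.68% ± 0.0802. Complex V had the largest share, with 38.3% ± 0.525 and 38.96% ± 0.454 in BxPC3, 34.5% ± 0.396 and 34.2% ± 0.241 in Panc327, and 46.1% ± 0.373 and 45.9% ± 0.386 in SUIT2. The ratio of summed levels with THZ1 over DMSO was 1.98 for complex IV and 1.59 for complex II in BxPC3, and 2.18 and 1.63 in Panc327.

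The response was then compared between lines by testing the difference of the fold changes. Between BxPC3 and SUIT2, 72 genes responded more upward in BxPC3 and 1 less, against 27.3% and 27.6% of all genes. The median difference was 0.76. Between Panc327 and SUIT2, 71 responded more upward in Panc327 and 1 less, against 28.3% and 32.4% of all genes, with a median of 0.84. These comparisons share the SUIT2 libraries. The largest differences from SUIT2 were NDUFA4 (1.14, SE 0.06), NDUFS6, a zinc-binding subunit of complex I (1.13, SE 0.09), and COX6C (1.08, SE 0.07) in BxPC3. In Panc327 they were ATP5E (1.25, SE 0.07), NDUFA4 (1.23, SE 0.06) and COX7B, a small complex IV subunit (1.22, SE 0.07). NDUFV3 was the gene with the lower response in both, at -0.98 ± 0.15 (SE) in BxPC3 and -0.43 ± 0.14 (SE) in Panc327. The second call was lost without Panc327 THZ1 replicate 1, which left 0 genes called lower. UQCRFS1 (0.051, adjusted p = 0.612) and NDUFA8 (0.079, adjusted p = 0.54) were the genes whose response in Panc327 was not called different from SUIT2.

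BxPC3 and Panc327 were much closer to each other. Their responses were called higher in BxPC3 for 4 genes and lower for 17, against 22.2% and 14.1% of all genes, and the median difference was -0.10, with 57 of 74 genes below 0. Across the 74 genes the 2 lines' responses had a Spearman correlation of 0.846 and a Pearson correlation of 0.894, a description over genes that share libraries and are not independent. NDUFV3 differed most (-0.55, SE 0.16, adjusted p = 0.00501), followed by NDUFC1, an accessory membrane subunit (-0.37, SE 0.14, adjusted p = 0.0324), and NDUFB5, another (-0.35, SE 0.10, adjusted p = 0.00301). The 4 with the stronger response in BxPC3 were NDUFA12 (0.29, SE 0.12), UQCRFS1 (0.23, SE 0.07), NDUFV2 (0.20, SE 0.08) and SDHD (0.19, SE 0.08). These small differences depended on the scaling: with DESeq2's size factors in the same fit, 0 genes were higher and 32 were lower.

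**Figure D4:**
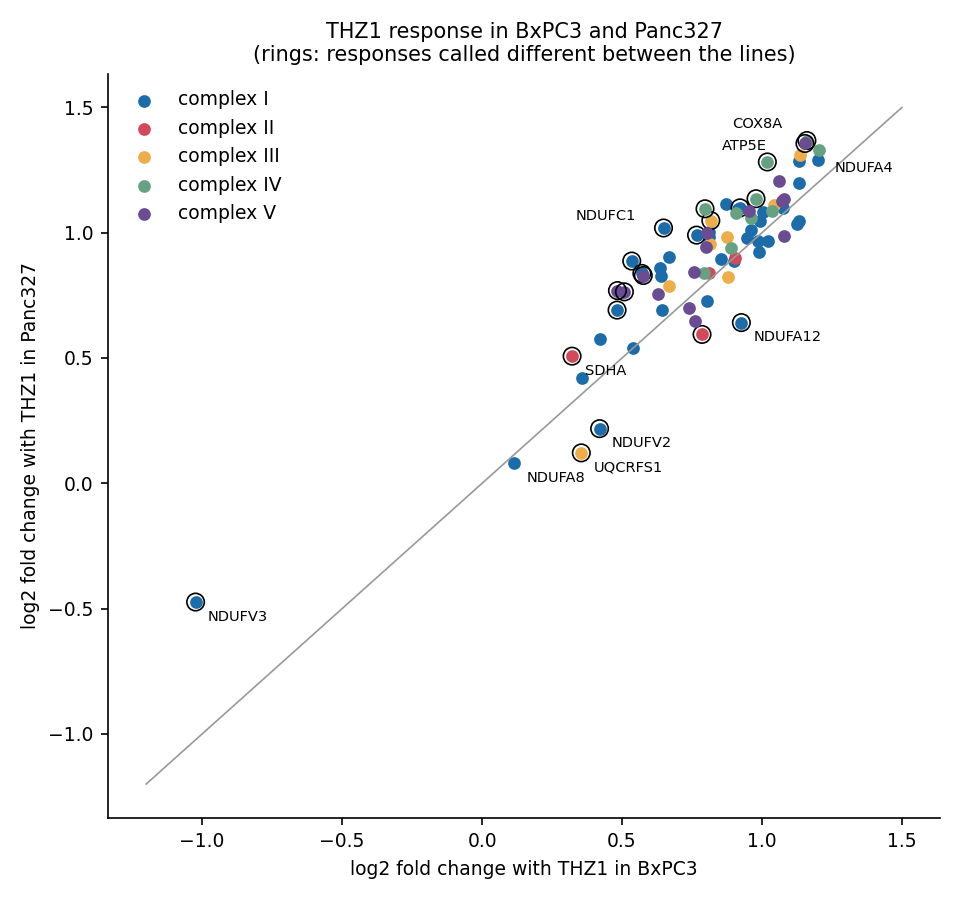
Log2 fold change with THZ1 in BxPC3 (x axis) and in Panc327 (y axis) for the 74 genes, coloured by complex, with rings around the 21 genes whose responses were called different and a line of equal response. Most genes lie above the line, NDUFA12, SDHD, NDUFV2 and UQCRFS1 lie below it with rings, and NDUFV3 stands alone at -1.02 and -0.47.

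SUIT2 showed small rises. The 17 genes called were NDUFA5, NDUFA12, NDUFA13, NDUFB2, NDUFB7, NDUFB9, NDUFB11 and NDUFV1 of complex I, UQCRC1, UQCRC2 and UQCRQ of complex III, COX6A1 and COX8A of complex IV, and ATP5B, ATP5D, ATP5I and ATP5J2 of complex V. Their log2 fold changes ran from 0.11 (ATP5B) to 0.27 (ATP5D). NDUFA12, an accessory subunit of the matrix arm, had the second highest, at 0.24 ± 0.08 (SE), with 32.3, 39.1 and 36.7 CPM in DMSO and 40.7, 40.5 and 46.7 CPM with THZ1, and its libraries did not overlap. All 3 treated libraries lay above all 3 controls for 24 of the 74 genes, against 14.2% of all genes, and for 11 of the 17 called. The count rested on single libraries: 4 genes were called without THZ1 replicate 1, 5 without DMSO replicate 1, 7 without DMSO replicate 3 and 11 without THZ1 replicate 2. DESeq2 and a fit of the SUIT2 libraries alone each called 10. At an unadjusted p under 0.05 edgeR had 29 genes higher, 1 of them in complex II, and 0 lower, against 13.9% and 13.2% of all genes. DESeq2 and limma voom also called 0 lower. Of the 74 genes, 68 had a fold change above 0 and 6 below.

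The lines also differed without the drug. In DMSO, 41 of the 74 genes were higher in BxPC3 than in Panc327 and 15 lower, against 38.6% and 40.7% of all genes, with a median log2 difference of 0.21. BxPC3 had 16 genes higher and 38 lower than SUIT2, against 38.9% and 39.7%, with a median of -0.17. Panc327 had 9 higher and 54 lower than SUIT2, against 42.9% and 39.6%, with a median of -0.44. Each line's DMSO libraries enter 2 of these comparisons. By mean level, SUIT2 was the highest line for 45 genes and Panc327 the lowest for 47. BxPC3 was the highest for 18 and the lowest for 18. The highest line exceeded the lowest by a median of 1.60-fold, and by 1.03-fold to 3.94-fold over the 74 genes.

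By median, the baseline differences between SUIT2 and the other lines were largest in complex V. Panc327 was lower than SUIT2 in 13 of its 15 genes and BxPC3 in 11, with medians of -0.82 and -0.45. The complex I medians were -0.54 and -0.18, those of complex III -0.48 and -0.12, and those of complex IV -0.25 and 0.06. Complex II was higher in BxPC3 than in SUIT2 for 3 of 4 genes, with a median of 0.20, and lower in Panc327 than in SUIT2 for 3 of 4, with 1 higher and a median of -0.22. SUIT2, the line with the smallest response, had the highest summed DMSO level of the 74 genes, at 9895 CPM, which was below the treated levels of the other lines.

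Some genes had a line order of their own. UQCRFS1 was 223, 227 and 218 CPM in Panc327, 120.4, 114 and 116 CPM in BxPC3 and 53.7, 54.9 and 60.8 CPM in SUIT2, with no overlap of any pair of lines. The log2 difference was 1.98 ± 0.05 (SE) between Panc327 and SUIT2 and -0.93 ± 0.05 (SE) between BxPC3 and Panc327. Its rise with THZ1 was smallest of complex III in both BxPC3 and Panc327. NDUFV2 was also highest in Panc327, at 127, 141 and 135 CPM, against 69.6, 60.7 and 68.8 CPM in BxPC3 and 67.03, 69.8 and 65.96 CPM in SUIT2. Panc327 thus had the highest levels of these 2 electron-carrying subunits and the lowest of most others.

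NDUFS4, a matrix arm subunit known for the complex I deficiency its loss causes, was 10.1, 10.1 and 10.04 CPM in Panc327, 29.2, 26.5 and 32.2 CPM in BxPC3 and 33.6, 31.7 and 31.6 CPM in SUIT2. Panc327 lay far below both other lines (1.54, SE 0.10, BxPC3 minus Panc327), whose libraries overlapped. ATP5G2 was 311, 329 and 318 CPM in SUIT2, 103, 98.6 and 101 CPM in BxPC3 and 104, 103 and 96.2 CPM in Panc327, so that SUIT2 stood 3.17-fold above the lowest line and the other lines overlapped. ATP5E and ATP5J2 were both higher in BxPC3 than in Panc327, by 1.30 ± 0.05 (SE) and 1.30 ± 0.06 (SE). NDUFA2 and NDUFB3, accessory subunits of complex I, were lower in BxPC3 than in SUIT2, with log2 differences of -1.16 ± 0.08 (SE) and -1.12 ± 0.08 (SE). SDHB was higher than in SUIT2 in both other lines, by 1.18 ± 0.06 (SE) in BxPC3 and 1.03 ± 0.06 (SE) in Panc327.

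**Figure D5:**
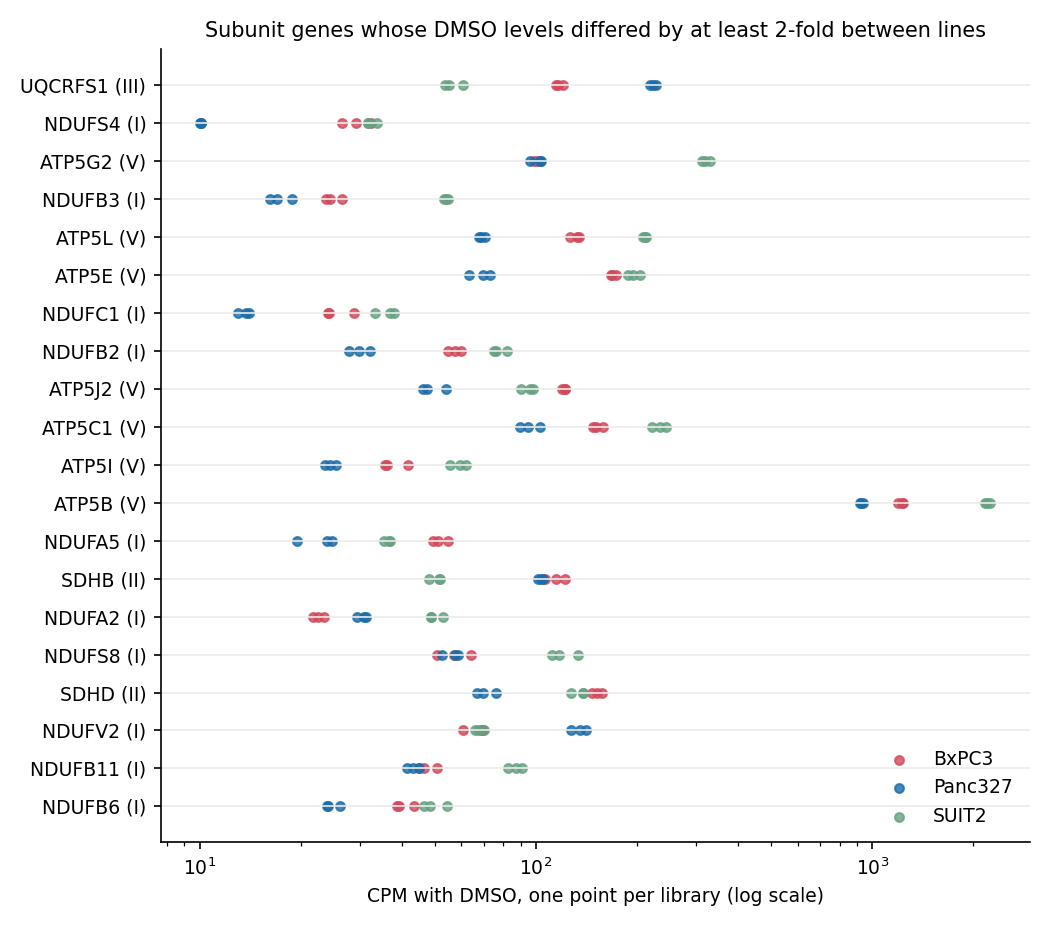
CPM in the 9 DMSO libraries (x axis, log scale) of the 20 genes whose highest line exceeded the lowest at least 2-fold (y axis), with 1 point per library coloured by line. UQCRFS1 has the widest spread, at 3.94-fold, with Panc327 the highest, while SUIT2 is the highest for most of the others.

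Levels of different genes can be compared per kilobase of the principal transcript, but the order depends on the length used. ATP5J2 has 305 bases in its principal transcript and 642 over all annotated exons, and ATP5G2 has 878 and 2244. On that scale ATP5B led in DMSO in every line, at 662 ± 11.04, 505 ± 4.31 and 1196 ± 23.2 CPM per kb in BxPC3, Panc327 and SUIT2. The next gene was ATP5J2 in BxPC3 (397 ± 3.99), COX6A1 in Panc327 (369.9 ± 11.3) and ATP5G2 in SUIT2 (364 ± 10.3), and COX4I1 came after it in each line. The complex medians per kb in DMSO were 142, 121 and 157 for complex IV in BxPC3, Panc327 and SUIT2, and 115, 88.7 and 143 for complex V. They were 45.5, 44.4 and 57.4 for complex I, the lowest in each line, though close to the 58.1 of complex II in SUIT2.

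The genes were short. Their principal transcripts had a median of 924 bases against 3036 for all protein-coding genes tested. The transcript with the most exons had a median of 5 exons against 9, and the gene span a median of 12579 bases against 32795. Across the 74 genes the response was lower for longer transcripts, with Spearman correlations of -0.294 in BxPC3, -0.397 in Panc327 and -0.198 in SUIT2. Over 13025 protein-coding genes the correlations were -0.181, -0.182 and 0.00796. Complex IV had short transcripts, with a median of 714 bases, complex II long ones at 1915, and the core genes of complex I had 1039 against 824 for the others. The part of length in the order of the complexes was not tested. Genes with an ETS match in a window had a median response of 0.95 in BxPC3 and 1.05 in Panc327 (20 genes) against 0.81 and 0.90 without (42 genes). Genes with an NRF1 match had 0.82 and 0.84 (21 genes) against 0.88 and 0.99 without (41 genes). With a YY1 match the medians were 0.82 and 0.90 (9 genes) against 0.88 and 0.98 without (53 genes). With a GC box they were 0.80 and 0.95 (20 genes) against 0.90 and 0.97 without (42 genes). These differences were not tested, and ETS matches were spread unevenly over the complexes.

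Other genes of the pathway did not all move with the subunits. Of all tested genes, 35.2% rose and 34.1% fell in BxPC3, and 35.6% and 37.8% in Panc327. In SUIT2 6.95% rose and 7.64% fell. These shares are the background for every list below. A list of 12 further subunits and electron carriers, such as CYC1 and NDUFAB1, had 10 genes higher and 0 lower in both BxPC3 and Panc327, with medians of 0.63 and 0.69, and 1 higher in SUIT2. CYC1, the cytochrome c1 of complex III, rose by 0.54 in BxPC3 and 0.58 in Panc327. Assembly factors were mixed. Of 52 over all complexes, 25 rose and 13 fell in BxPC3 (median 0.22), 26 rose and 18 fell in Panc327 (median 0.17), and 3 rose and 4 fell in SUIT2. With library size scaling the medians of the assembly factors turned to -0.18 and -0.16 in BxPC3 and Panc327.

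Some complex II assembly factors fell while their complex rose, and 34.1% of all tested genes fell in BxPC3 and 37.8% in Panc327. SDHAF1, which helps insert iron-sulfur clusters into SDHB, was at 9.33 ± 1.46 in DMSO and 2.87 ± 1.26 with THZ1 in BxPC3 (log2 fold change -1.69) and at 24.3 ± 1.96 in DMSO and 2.63 ± 1.27 with THZ1 in Panc327 (-3.24), in CPM. SDHAF2, which attaches the flavin to SDHA, fell by 1.19 in BxPC3 and 1.42 in Panc327 on the log2 scale. Of the 4 complex II factors 1 rose and 2 fell in BxPC3, and 0 rose and 2 fell in Panc327. For complex I, 9 of 15 factors rose and 2 fell in BxPC3, and 8 rose and 6 fell in Panc327. For complex III, 1 of 6 rose and 3 fell in BxPC3, and 2 rose and 3 fell in Panc327. For complex IV, 11 of 23 rose and 5 fell in BxPC3, and 13 rose and 6 fell in Panc327. Among the complex V factors, ATPAF2, a chaperone of the alpha subunit, rose by 1.42 in BxPC3 and 1.05 in Panc327. TMEM70, which helps build the c ring, fell by 0.87 and 1.60.

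Of 15 regulators of mitochondrial gene expression tested, 2 rose and 10 fell in BxPC3 (median -0.77), 1 rose and 11 fell in Panc327 (median -0.89), and 0 rose and 2 fell in SUIT2. NRF1 itself had log2 fold changes of -0.26 in BxPC3 and -0.36 in Panc327. GABPA, the ETS factor subunit that binds DNA, had values of 0.11 and 0.01, and GABPB1, its partner, of -1.38 and -1.59. YY1 was the gene that rose in both lines, at 0.58 and 0.21. SP1 had values of -0.86 and -1.58, and ESRRA, a nuclear receptor of energy metabolism, of -0.77, -1.15 and, in SUIT2, -0.32. Protein levels and activity of these factors were not measured.

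Of 77 mitochondrial ribosomal protein genes, 31 rose and 25 fell in BxPC3 (median 0.06), 31 rose and 31 fell in Panc327 (median -0.02), and 0 rose and 5 fell in SUIT2. Of 82 cytoplasmic ribosomal protein genes, 80 rose and 2 fell in BxPC3 (median 0.86), 81 rose and 1 fell in Panc327 (median 1.01), and 4 rose and 0 fell in SUIT2 (median 0.05). The subunit genes of the respiratory chain, at 0.86 and 0.97, thus had medians near those of the cytoplasmic ribosome and above those of the mitochondrial ribosome. With library size scaling the medians were -0.33 and -0.34 for the mitochondrial and 0.47 and 0.68 for the cytoplasmic ribosome, against 0.47 and 0.64 for the 74 genes. These differences between lists were not tested.

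Reads could also be shared between overlapping genes, since the strand setting of the counting is not given in the sources used here. NDUFB2 overlaps BRAF, ATP5J overlaps GABPA, NDUFB11 overlaps RBM10 and UQCRQ overlaps GDF9 on the opposite strand, so their values are uncertain to that extent. The same holds for ATP5E, with 1188 exonic bases shared with TUBB1, and NDUFS1, with 1430 shared with EEF1B2 and another gene. Some genes overlap another on their own strand, whatever the setting. Examples are COX8A, over 175 of its 507 exonic bases, and NDUFV2, over 771 of 1875. Not all overlaps are listed here. NDUFC2 and ATP5J2 lie within readthrough loci. Named pseudogenes number 12 each for NDUFA5 and NDUFB4 and 7 each for ATP5A1, ATP5F1, ATP5G1 and COX6B1.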

How the data were processed

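Counts per gene were deposited by the authors, 1 file per library; per the submitters' processing notes, bcl2fastq 1.8.4, TopHat2 2.1.0, HTSeq 0.6.1 and hg38 were used, and the annotation and the strand setting of the counting were not given in those notes. The 5 summary entries of each file, 21.3% to 64.6% of its records, entered neither library sizes nor tests.

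Genes were kept by edgeR's filterByExpr (minimum count 10, minimum total 15), scaled by TMM and fitted in 1 quasi-likelihood model over all 6 groups (edgeR 4.0.16, R 4.3.3, 12 residual degrees of freedom). The 9 contrasts were THZ1 against DMSO in each line, the differences of those responses, and the DMSO levels between lines, each with Benjamini-Hochberg adjustment over all 14011 genes. SE is the standard error of the log2 fold change from the fit, and CPM uses TMM-scaled library sizes. Gene counts of 5626146 to 8631273 per library gave a median coefficient of variation of 4.31% within groups. Positions, lengths and overlaps came from GENCODE 29 (GRCh38), and ATP5 symbols were matched through RefSeq synonyms.

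The members and lists were chosen with earlier results of these data known, and the split of members by role was made after their values were seen. Genes were named by a rule: the highest and lowest of each complex per line, the SDH and c subunit genes, 8 catalytic subunits, NDUFA4, the 3 largest differences each way between lines, all members that fell, and the ends of each other list. 1 gene that the rule names is not reported here. Other genes named were chosen after their values were seen. The alternatives tried were DESeq2 1.42.0, limma voom (limma 3.58.1), RLE scaling, no composition scaling, keeping all genes, fitting the compared groups alone, blocking on the replicate number, asking for 2-fold changes, and dropping each library in turn. The scripts were tested on simulated data.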

Additional observations from a re-analysis of the deposited data

Results flagged for a closer look

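The THZ1 response differed between lines by the test of the difference itself. BxPC3 against SUIT2 had 72 genes with the higher response in BxPC3 and 1 with the lower, and Panc327 against SUIT2 had 71 and 1. Of all tested genes, 27.3% and 27.6% were called so in the first comparison, and 28.3% and 32.4% in the second. The named genes at the ends of BxPC3 against SUIT2 were NDUFA4 (1.14), NDUFS6 (1.13), COX6C (1.08) and NDUFV3 (-0.98), as log2 differences. For Panc327 against SUIT2 they were ATP5E (1.25), NDUFA4 (1.23), COX7B (1.22) and NDUFV3 (-0.43).

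Between BxPC3 and Panc327 the response was higher in BxPC3 for 4 genes and lower for 17, against 22.2% and 14.1% of all genes. At the ends were NDUFA12 (0.29), UQCRFS1 (0.23) and NDUFV2 (0.20) on one side, and NDUFV3 (-0.55), NDUFC1 (-0.37) and NDUFB5 (-0.35) on the other.

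Outside the gene counts, records set aside as aligned to more than 1 place reached 22.8% of all records in BxPC3 with THZ1 and 52.8% in Panc327 with THZ1, above the DMSO libraries of the same lines. Their part in the results was not tested.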

How the results depend on the processing

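The counts of 72 and 72 genes higher with THZ1 in BxPC3 and Panc327 stayed within 1.5 times under every setting run except the 2-fold threshold, which left 19 and 30, and 0 in SUIT2. That threshold also gave 0 lower in Panc327, 0 and 0 for the response of BxPC3 against Panc327, 5 and 0 for BxPC3 against SUIT2, 17 and 0 for Panc327 against SUIT2, and for the DMSO levels 5 and 1 (BxPC3 against Panc327), 2 and 4 (BxPC3 against SUIT2) and 2 and 13 (Panc327 against SUIT2), higher and lower. SUIT2 had 10 higher with DESeq2 and 10 with only the groups compared. For the response of BxPC3 against Panc327, higher calls were 0 with RLE size factors, library size only, DESeq2 and only the groups compared, and lower calls were 32, 32, 30 and 46 under these, and 10 without the filter. With library size only, genes called lower were 2 in BxPC3, 3 in Panc327, 3 for the response of BxPC3 against SUIT2 and 3 for Panc327 against SUIT2, where DESeq2 gave 0. Library size only also turned the sign of SDHA (-0.074) and UQCRFS1 (-0.041) in BxPC3, NDUFV2 (-0.11) and UQCRFS1 (-0.20) in Panc327, and the response differences from SUIT2 of SDHA (-0.15) and UQCRFS1 (-0.096) in BxPC3 and NDUFV2 (-0.059) and UQCRFS1 (-0.26) in Panc327. The cause was not tested for these changes, other than that the 2-fold threshold asks for a larger change.

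Leaving out 1 library gave 72 to 72 higher and 1 to 1 lower in BxPC3, 71 to 72 and 1 to 1 in Panc327, and 4 to 15 and 0 to 0 in SUIT2. For the response it gave 1 to 4 and 11 to 18 (BxPC3 against Panc327), 72 to 72 and 1 to 1 (BxPC3 against SUIT2), and 71 to 71 and 0 to 1 (Panc327 against SUIT2). For DMSO levels it gave 39 to 42 and 12 to 16, 14 to 16 and 36 to 40, and 8 to 10 and 54 to 56. Replicate numbers did not pair the samples (correlations of same-numbered deviations from -0.093 to 0.026). With the replicate block 17 genes were higher in SUIT2, 3 higher and 16 lower for the response of BxPC3 against Panc327, and the other counts were as without it. Of 324 values of named genes, 8 turned sign with library size only and 0 under the other settings. Depth limits the low genes most: NDUFV3 had 66 counts in its lowest library.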

Other observations

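For members whose DMSO level differed at least 2-fold between lines, the tested genes within 1 Mb were looked at after those differences had been seen. Only some of these members are given here. Of all tested genes, 42.9% were called higher and 39.6% lower in Panc327 than in SUIT2. For BxPC3 against Panc327 the shares were 38.6% and 40.7%. UQCRFS1 was higher in Panc327 than in SUIT2 by 1.98 (log2), and its 5 neighbours had a median difference of 1.92, with all 5 called in the same direction. NDUFS4 was higher in BxPC3 than in Panc327 by 1.54, and its 8 neighbours had a median of 1.85, with 7 called in the same direction and 1 in the opposite. NDUFV2 was lower in BxPC3 than in Panc327, at -1.02. Its 9 neighbours had a median of -1.29, with 8 called in the same direction and 1 in the opposite. ATP5G2, at -1.66 for Panc327 minus SUIT2, had 40 neighbours, of which 21 were called in the same direction and 12 in the opposite. ATP5C1 had 6 neighbours in that comparison, with 2 in the same direction and 3 in the opposite.

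Among isoforms made mainly in other tissues, COX6B2, a testis form of a complex IV subunit, had log2 fold changes of -1.07 in BxPC3 and 1.03 in Panc327. NDUFA4L2, a paralog of NDUFA4, had 3.59 in Panc327. Both were at low levels. NDUFA4L2 was at 0.219 ± 0.112 CPM with DMSO and 2.82 ± 0.473 CPM with THZ1 in Panc327, so its fold change starts near 0. COX6B2 was at 5.33 ± 0.883 and 2.53 ± 0.549 CPM in BxPC3. COX4I2, COX6A2, COX7A1, COX7B2 and COX8C did not pass the filter on low counts.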
